A study of Homo sapiens with 22 samples.

Results

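CHAC1, ATF3, CEBPG, XBP1 and SIL1, genes of the integrated stress response and the unfolded protein response, were followed across human CodeLink expression arrays. They are 5 of the 7302 genes named by a single symbol in the series and were chosen by a fixed list of names: the ATF4 target CHAC1, the bZIP transcription factors ATF3, CEBPG and XBP1, and SIL1. The list was drawn up with the treated and untreated values of Mia-PaCa-2 in view, so the treatment differences of these genes in that line are given as a description, with no test. The groups were Mia-PaCa-2 cells, a human pancreatic carcinoma line, given 1 µM Amblyomin-X for 4 h (6 arrays) and the same cells left untreated (6 arrays). SK-MEL-28, a human melanoma line, had 5 arrays of cells given the same dose for the same time and 5 of untreated cells. Amblyomin-X is a recombinant Kunitz-type protease inhibitor first found in a tick. Each hybridization used its own cRNA preparation. The sources used here do not say whether separate cultures were used, so errors and p-values describe the spread between arrays, which may be technical. Both groups of a line are cultures of 1 established tumour line.

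Cells that accumulate misfolded proteins in the endoplasmic reticulum (ER), lack amino acids or meet oxidative stress phosphorylate the translation factor eIF2 alpha. General protein synthesis then slows, while the mRNA of the transcription factor ATF4 is translated more, and ATF4 with its bZIP partners switches on genes for amino acid supply, redox balance and, under lasting stress, cell death. In parallel the ER sensor IRE1 splices XBP1 mRNA and the sensor ATF6 is cut to an active form, and both raise ER chaperones and the machinery that removes misfolded proteins.

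The promoters of these genes are shown for the motifs that ATF4 and ER stress factors are known to bind. They were read from RefSeq (GRCh38.p14), from 250 bases before to 50 bases after each annotated start, and gave 8 windows for the 5 genes. Both strands were searched for the C/EBP-ATF response element (CARE, TGATGNAA), the cAMP response element (CRE, TGACGTCA), the core of the unfolded protein response element (UPRE core, TGACGTG) and the ER stress response element (ERSE, CCAAT and CCACG with 9 bases of any kind between them). None of these motifs contains another. The 4 windows with a match follow, 5′ to 3′ on the strand of the gene, with the match in capitals.

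CHAC1, chr15:40953221-40953520, plus strand: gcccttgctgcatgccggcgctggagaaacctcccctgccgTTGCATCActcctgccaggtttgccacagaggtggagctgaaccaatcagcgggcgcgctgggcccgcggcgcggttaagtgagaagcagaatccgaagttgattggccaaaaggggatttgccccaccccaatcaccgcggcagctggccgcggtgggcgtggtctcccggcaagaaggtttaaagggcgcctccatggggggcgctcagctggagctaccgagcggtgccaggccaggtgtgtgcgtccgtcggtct

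ATF3, chr1:212565157-212565456, plus strand: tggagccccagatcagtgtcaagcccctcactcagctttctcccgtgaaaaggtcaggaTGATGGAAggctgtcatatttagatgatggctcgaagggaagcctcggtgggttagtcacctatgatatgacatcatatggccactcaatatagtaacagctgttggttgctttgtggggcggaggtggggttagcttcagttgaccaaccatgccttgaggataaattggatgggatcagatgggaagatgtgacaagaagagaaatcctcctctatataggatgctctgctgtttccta

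CEBPG, chr19:33373863-33374162, plus strand: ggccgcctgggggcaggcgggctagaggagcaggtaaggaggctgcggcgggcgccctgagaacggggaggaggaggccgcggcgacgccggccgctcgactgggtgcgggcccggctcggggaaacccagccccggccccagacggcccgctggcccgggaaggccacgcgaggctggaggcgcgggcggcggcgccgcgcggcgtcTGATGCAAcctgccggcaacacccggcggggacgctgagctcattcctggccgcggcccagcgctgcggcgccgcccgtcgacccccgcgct

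XBP1, chr22:28800520-28800819, minus strand: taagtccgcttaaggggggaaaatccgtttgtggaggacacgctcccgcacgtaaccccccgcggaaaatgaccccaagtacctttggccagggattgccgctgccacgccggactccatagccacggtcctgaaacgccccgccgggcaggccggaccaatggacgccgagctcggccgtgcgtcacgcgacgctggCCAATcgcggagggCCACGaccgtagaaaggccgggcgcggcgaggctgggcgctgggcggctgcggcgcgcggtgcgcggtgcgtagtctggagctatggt

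CHAC1, ATF3 and CEBPG each held 1 CARE. The one in CHAC1 lies on the opposite strand and its first printed base is 209 bases before the start, while those of ATF3 and CEBPG begin 191 and 42 bases before theirs. A CARE was present in 3.62% of 35116 RefSeq promoters of the same length. XBP1 held 1 ERSE, beginning 52 bases before the start, a motif found in 0.0769% of those promoters (27 of 35116). The single window of SIL1 held none of the motifs, and no window of the 5 genes held a CRE or a UPRE core, which 1.85% and 1.97% of promoters carried. A match is a description of the letters, and these data measured no binding.

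The table of the series held 11606 probes for Mia-PaCa-2 and 7975 for the melanoma line. Each of the 5 genes had 1 probe for Mia-PaCa-2 and 0 for SK-MEL-28, so all their values come from 12 arrays. Untreated Mia-PaCa-2 arrays 4 and 5 stood apart. Over the 5195 probes with a value on all 22 arrays, their log2 profiles correlated at 0.786 to 0.787 with the mean of SK-MEL-28, against 0.407 to 0.471 for the other 10 Mia-PaCa-2 arrays. Their correlation with the rest of their own line was 0.817 to 0.818, against 0.924 to 0.970. In SK-MEL-28 treated arrays 3 and 5 stood apart further, at 0.784 to 0.827 with the mean of Mia-PaCa-2 against 0.408 to 0.451 for the other 8. Their correlation with the rest of their own line was 0.710 and 0.775, against 0.897 to 0.952 for the other 8. Both were thus more like the other line than their own, unlike the 2 Mia-PaCa-2 arrays. The main differences and list medians are therefore given with and without these arrays. The marker values that follow were not taken again without them. Of 8 epithelial markers, KRT8, KRT18, KRT19, MUC1 and SOX9 were measured in Mia-PaCa-2, and their summed intensity was 11796 to 19525 on treated and 9802 to 16126 on untreated arrays, over the 8 arrays with all 5 values. KRT18 made up most of that sum and had no value on 4 arrays. The other 4 had lower medians on treated arrays: 80.9 against 155.8 for MUC1, 240.2 against 283.1 for KRT8, 142.1 against 154.9 for KRT19 and 720.5 against 869.4 for SOX9. Their part in the results below was not tested. None of the 10 melanocyte or 6 leukocyte markers had a named probe in either line, and the only fibroblast marker in Mia-PaCa-2, COL1A1, read 55.2 to 79.2 on treated and 57.3 to 88.9 on untreated arrays.

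With limma, 0 of 11604 probes tested in Mia-PaCa-2 (0.00%) passed an adjusted p of 0.05, with 0.120 as the lowest value. Without adjustment 1113 probes had a p under 0.05 (9.59%), of which 602 were higher and 511 lower after Amblyomin-X. In SK-MEL-28, 0 of 7973 probes passed after adjustment (0.00%) and 446 did without it (5.59%), or 857 with the replicate number as a block. The values below are therefore read against the spread of 6 arrays per group. Levels are the authors' normalized intensities, on a linear scale without a unit, and differences are treated minus untreated on the log2 scale with their standard error (SE). The SE is the moderated one of limma, which draws the variance of a probe toward that of all probes. It therefore does not follow from the SDs printed below alone. In RNA from whole cultures, more transcript per cell and more cells with the transcript cannot be told apart.

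CHAC1 degrades glutathione in the cytosol and is a target of ATF4. Its intensity (lowest, median, highest) was 58.6, 71.0 and 92.0 on the 6 treated arrays and 27.1, 36.9 and 54.3 on the 6 untreated arrays. In these normalized values the groups did not overlap: the lowest treated value, on array 1, lay just above the highest untreated value, also on array 1. Before normalization they did overlap, with 47.4 on treated array 1 against 52.4 and 48.6 on untreated arrays 1 and 3. The median intensities of these 3 arrays were then 74.3, 95.2 and 156.0. The mean log2 level was 6.20 ± 0.22 with Amblyomin-X and 5.27 ± 0.39 without (SD, n = 6 each), a difference of 0.93 ± 0.20 (SE), or 1.91-fold. With an offset of 50 added before log2, which weighs dim values less, it was 0.47. Without untreated arrays 4 and 5, which read 51.0 and 40.1, the difference was 1.05 ± 0.21. Of all 11604 probes, 33 had every treated array above every untreated one (0.284%), and 69 did so without untreated arrays 4 and 5 (0.595%). As CHAC1 was chosen on this contrast, nothing is read from its place among them. The probe was dim, brighter than 21.5% to 46.5% of the probes of the same array in treated cells and than 1.48% to 17.6% in untreated cells.

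ATF3, a bZIP factor induced early by many stresses and itself a target of ATF4, read 28.7, 50.9 and 56.7 (lowest, median, highest) with Amblyomin-X and 22.8, 31.6 and 49.4 without. Treated array 2 stood far below the other 5 treated arrays, which read 45.7 to 56.7, and untreated array 5 was the highest of its group. Every untreated array was exceeded by 3 treated arrays, and 5 of 6 exceeded the untreated mean. The mean log2 level was 5.55 ± 0.37 with Amblyomin-X and 5.05 ± 0.37 in untreated cells (SD, n = 6 each), a difference of 0.50 ± 0.22 (0.22 with the offset of 50). Leaving out untreated arrays 4 and 5 gave 0.62 ± 0.22, and 5 of the 6 treated arrays then lay above every untreated one. This probe was dim as well, above 1.79% to 19.8% of the probes of an array in treated and 0.837% to 13.2% in untreated cells.

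CEBPG encodes C/EBP gamma, a bZIP protein that pairs with ATF4 on CARE sites. Its probe read 240.1, 316.6 and 540.6 in treated cells and 158.8, 232.9 and 284.1 in untreated cells (lowest, median, highest). In all, 4 of 6 treated arrays lay above every untreated array, with array 5 highest, while treated arrays 1 and 2, at 240.1 and 248.1, lay among the untreated values. The difference was 0.59 ± 0.23, from means of 8.35 ± 0.43 with and 7.76 ± 0.36 without Amblyomin-X (SD, n = 6 each). Untreated arrays 4 and 5 read 160.5 and 158.8, below the 227.0 to 284.1 of the other 4. Without them the difference was 0.37 ± 0.22, and 4 of 6 treated arrays again lay above every untreated one.

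XBP1, whose mRNA is spliced by IRE1 to encode an activator of ER chaperone and degradation genes, read 170.8, 197.8 and 481.1 in treated cells and 101.4, 161.3 and 206.9 in untreated cells (lowest, median, highest). Treated array 4 was highest and treated array 6, at 309.6, came next, whereas the other 4 treated arrays read 170.8 to 209.6. The untreated arrays fell into a set of 3 at 201.6 to 206.9 (arrays 1, 4 and 6) and a set of 3 at 101.4 to 121.1. The mean log2 level was 7.89 ± 0.59 with Amblyomin-X and 7.24 ± 0.49 without (SD, n = 6 each), a difference of 0.66 ± 0.29. It was 0.66 ± 0.32 without untreated arrays 4 and 5. Where the probe lies relative to the spliced intron is not stated in the labels or files used here, so the value stands for the XBP1 signal as a whole.

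SIL1 acts in the ER lumen as a nucleotide exchange factor of BiP, the main ER chaperone of the Hsp70 family. Unlike the other 4 genes it read lower after Amblyomin-X: 18.3, 24.3 and 44.1 (lowest, median, highest) on treated and 34.9, 54.6 and 68.1 on untreated arrays. Of the 6 treated arrays 5 lay below every untreated array. The exception was treated array 3 at 44.1, above untreated arrays 1 and 6. Mean log2 levels were 4.70 ± 0.44 with Amblyomin-X and 5.70 ± 0.38 in untreated cells (SD, n = 6 each), a difference of -1.0 ± 0.24, so that the treated level was 0.499 of the untreated one. With the offset of 50 it was -0.42. Without untreated arrays 4 and 5, and with no offset, it was -0.97 ± 0.27. Of all probes tested, 30 (0.259%) had every treated array below every untreated one, and 65 (0.560%) without those 2 arrays. SIL1 was not among them. The SIL1 probe was dim, above 0.431% to 8.93% of an array's probes in treated and 3.63% to 30.2% in untreated cells. Detection flags were not used here, so how far such dim values stand above background is not known.

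**Figure D1:**
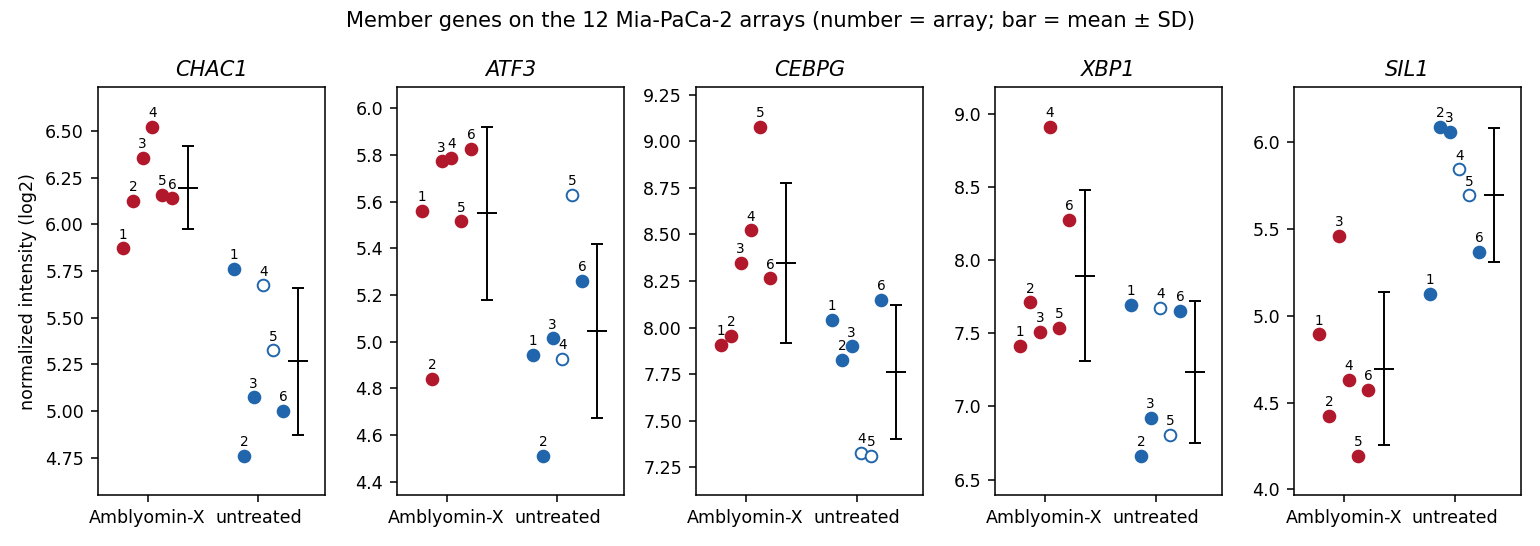
Normalized intensity (log2, each panel with its own axis) of the 5 genes on the Mia-PaCa-2 arrays, Amblyomin-X on the left (red) and untreated on the right (blue). Numbers are the array numbers, open circles are untreated arrays 4 and 5, and bars are the mean ± SD of 6 arrays. The groups do not overlap for CHAC1, while 3 of 6 treated arrays lie above every untreated one for ATF3 and XBP1, 4 of 6 for CEBPG, and 5 of 6 lie below every untreated one for SIL1.

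Set side by side on the same arrays, the genes did not follow one order (rank 1 is the highest of 12 arrays). Treated array 4 ranked first of 12 for CHAC1 and XBP1 and second for ATF3 and CEBPG. Treated array 5 ranked first for CEBPG and lowest for SIL1, but only sixth for ATF3 and seventh for XBP1. Treated array 1 had the lowest CHAC1, CEBPG and XBP1 values of its group, and untreated array 2 was last of the 12 for CHAC1, ATF3 and XBP1 and first for SIL1. All 6 treated arrays lay above the untreated mean for CHAC1 and XBP1 and below it for SIL1, with and without untreated arrays 4 and 5. For CEBPG 6 of 6 lay above it with those arrays and 4 of 6 without them.

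**Figure D2:**
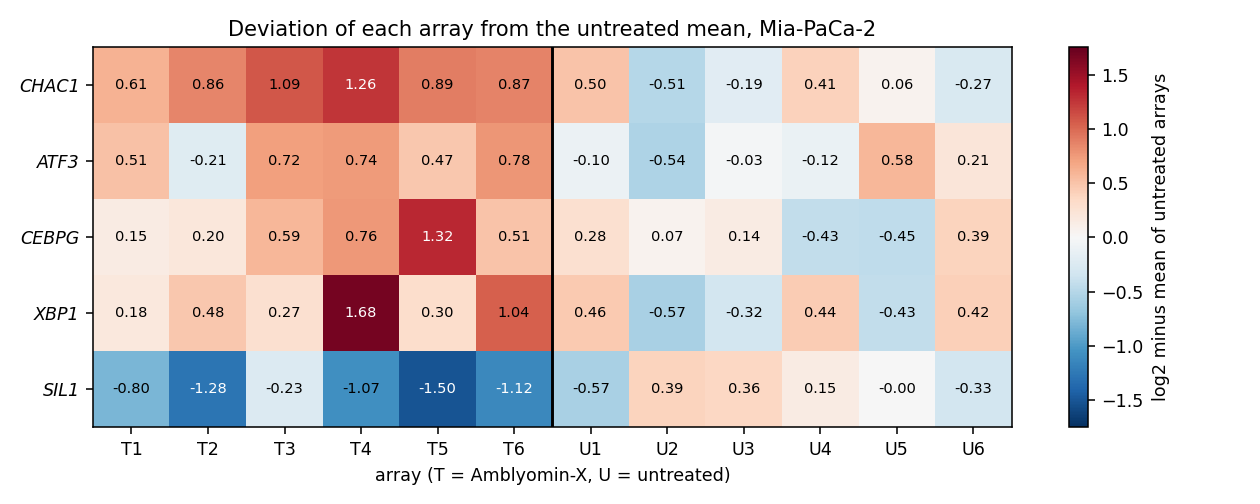
Each array's log2 value minus the mean of the 6 untreated arrays, for the 5 genes (rows) on the 6 treated (T1 to T6) and 6 untreated (U1 to U6) Mia-PaCa-2 arrays, red above and blue below the untreated mean. SIL1 is blue on all 6 treated arrays, CHAC1, CEBPG and XBP1 are red on all 6, and ATF3 is red on 5.

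Covariation was examined after each group had been centred on its own mean, which removes the treatment difference that chose the genes. Over 12 arrays 10 pairs were compared, each by a 2-sided permutation test with 100000 resamples within groups. CHAC1 and XBP1 had the highest correlation, with Pearson's r of 0.61 (p = 0.0409, adjusted p = 0.409 over the 10 pairs) and Spearman's rho of 0.62 (p = 0.0536, adjusted p = 0.375). Without the 2 arrays farthest from the median of CHAC1, r was 0.48, and without untreated arrays 4 and 5 it was 0.63. Within the treated arrays r was 0.66 and within the untreated arrays 0.64 (n = 6 each). SIL1 ran against XBP1 at -0.42 (rho = -0.57) and against CEBPG at -0.38 (rho = -0.47), with adjusted permutation p-values of 0.820 for both r. The remaining pairs had r from -0.24 (CHAC1 and SIL1) to 0.25 (CHAC1 and ATF3). CHAC1 and CEBPG, at -0.018, gave 0.32 without untreated arrays 4 and 5. None of the 10 pairs passed the threshold after adjustment. Array-to-array variation within a group was thus not shown to be shared by any pair, and the values on an array also share its labelling and normalization.

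**Figure D3:**
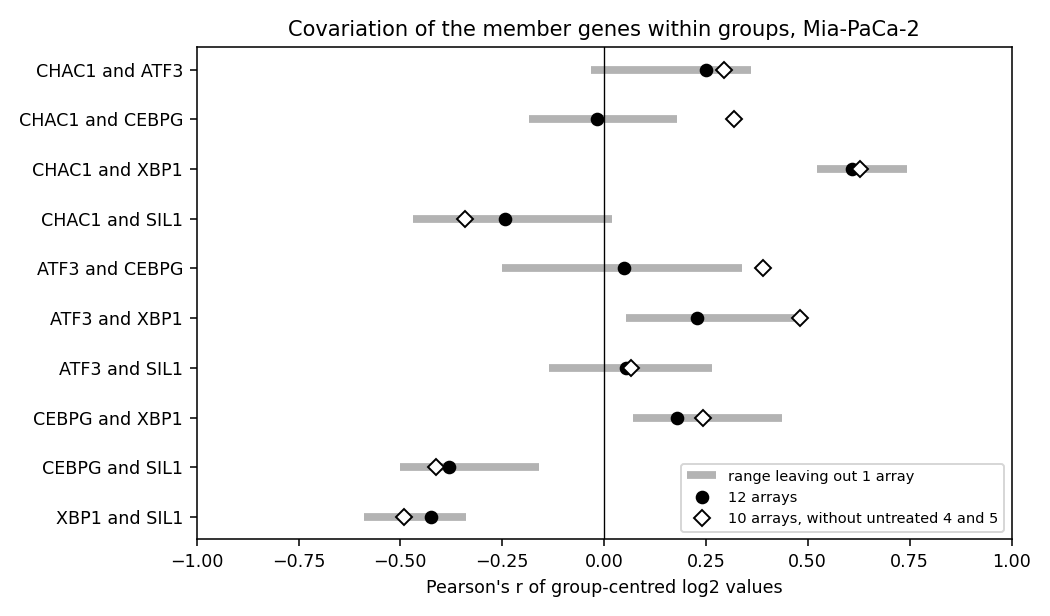
Pearson's r (horizontal axis) between pairs of the 5 genes over the group-centred log2 values of the Mia-PaCa-2 arrays. Filled circles use 12 arrays, open diamonds 10 arrays without untreated 4 and 5, and grey bars span the values with 1 array left out in turn. CHAC1 and XBP1 lie highest at 0.61, with a bar that stays above 0.5, and the bars of 5 pairs cross 0.

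The genes with the most similar profiles were ranked by Pearson's r of uncentred log2 values over the 12 arrays, among 6868 probes with a single symbol and a value on every array. These r values are the highest of many and include the treatment difference. CHAC1 was most like PXDC1 (r = 0.88), TRIM21 (0.88), a ubiquitin ligase that binds antibodies in the cytosol, and DHX38 (0.84), a splicing helicase. They gave 0.88, 0.95 and 0.88 without untreated arrays 4 and 5. ATF3 was most like FAM86B2-DT (0.81), CCDC90B (0.79) and CEBPB (0.79), itself a bZIP factor and ATF4 target. CEBPG was closest to MAP4K4 (0.92), a stress-activated kinase, the histone gene H2AC25 (0.91) and FAM118B (0.90). XBP1 was closest to PACS1 (0.95), a sorting adaptor, IRAK1 (0.94), a kinase of interleukin-1 signalling, and NFAT5 (0.92), the factor of the response to high salt. SIL1 was closest to DCTPP1 (0.89), a dCTP pyrophosphatase, ZDHHC5 (0.89), a palmitoyl transferase, and HIF1A (0.87), the oxygen-regulated factor. With each group centred, the r of these 15 genes with their member ran from 0.51 (DHX38 with CHAC1) to 0.96 (IRAK1 with XBP1). Uncentred and without untreated arrays 4 and 5, the r for ATF3, CEBPG, XBP1 and SIL1 ran from 0.77 (CCDC90B with ATF3) to 0.95 (PACS1 with XBP1).

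ATF4, the factor upstream of CHAC1, was measured in both lines. In Mia-PaCa-2 its intensity (lowest, median, highest) was 256.1, 334.5 and 355.6 with Amblyomin-X and 143.0, 269.2 and 530.1 without, so all treated values lay inside the untreated range, where array 2 was highest and array 6 lowest. The difference was 0.29 ± 0.26 (limma, adjusted p = 0.638), and 0.18 without untreated arrays 4 and 5. Single arrays moved it as far, to 0.12 without untreated array 6 and 0.49 without untreated array 2. ATF4 is controlled mainly at translation, which the arrays did not measure.

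In Mia-PaCa-2, lists of other genes of the pathway were counted with 1 probe per gene, and 0 genes of any list passed after adjustment by limma. The eIF2 alpha switch (kinases, eIF2 alpha, eIF2B subunits, phosphatase subunits, NCK1, IMPACT and ATF4) had 11 of 15 genes measured. The phosphatase subunits PPP1R15A and PPP1R15B were not among the 11, nor were NCK1 and EIF2AK3. All 11 had a value above 0, as did 51.2% of all probes. The median difference was 0.29 beside 0.01 over all probes. An unadjusted limma p under 0.05 was found for 2 genes (18.2%), against 9.59% of all probes. Without untreated arrays 4 and 5, 8 were higher and 3 lower, with a median of 0.18. EIF2AK1, the heme-regulated eIF2 alpha kinase, read 1157 to 1612 on treated and 602.1 to 1320 on untreated arrays, a difference of 0.56 ± 0.21 (0.33 without the 2 arrays). EIF2B3, a subunit of the exchange factor that eIF2 alpha phosphorylation inhibits, differed by 0.71 ± 0.33, but by 0.17 without them. EIF2B4 of the same complex gave 0.34 ± 0.20 (0.23 without them) and EIF2S1, eIF2 alpha itself, 0.48 ± 0.31 (0.32), with 0.41 at its other probe. Leaving out 1 array moved the differences of 12 of the 28 pathway genes named for Mia-PaCa-2 by over 1.5 times. The limma adjusted p of these 4 genes was 0.501 to 0.527. The EIF2AK3 gene, which encodes the ER-bound kinase PERK, had no probe named by a single symbol in the table used here.

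Other targets of ATF4 did not share one direction. Of 51 listed, 24 were measured, 10 higher and 14 lower, with a median of -0.07. Without adjustment 2 passed (8.33%, against 9.59% of all probes). Without untreated arrays 4 and 5 the count was 13 higher and 11 lower, with a median of 0.04. TRIB3, a pseudokinase that restrains ATF4, read 59.4, 77.1 and 97.8 (lowest, median, highest) with and 47.3, 53.2 and 76.2 without Amblyomin-X, a difference of 0.43 ± 0.20, or 0.62 without the 2 arrays. ASNS, asparagine synthetase, read 78.5 to 201.6 on treated and 93.5 to 463.3 on untreated arrays, a difference of -0.76 ± 0.37 (-0.58 without the 2 arrays). WARS1, tryptophanyl-tRNA synthetase, differed by -0.76 ± 0.29 (-0.76 without them), with 5 treated arrays at 16.8 to 28.2 and treated array 3 at 66.9, above the 34.6 to 58.1 of the untreated arrays. Each of the 3 had a limma adjusted p of 0.501. TRIB3 and WARS1 were dim, and WARS1 about as dim as SIL1. Over all alternatives TRIB3 ran from 0.25 to 0.62, ASNS from -1.02 to -0.56 and WARS1 from -1.035 to -0.28. CEBPB, also on this list, gave 0.47 ± 0.23. Of the ATF4 targets named here for Mia-PaCa-2, ASNS and WARS1 read lower after Amblyomin-X, whereas TRIB3, CEBPB, CHAC1 and ATF3 read higher. CHAC1 and ATF3 were chosen on this contrast and the others by name or smallest unadjusted p, so they do not stand for the list.

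The list of other bZIP factors had 17 of 37 genes measured, 8 higher and 9 lower, with a median of -0.06. Past the unadjusted threshold were 2 genes (11.8%, against 9.59% of all probes). The list also held CEBPZ, which despite its symbol is not a bZIP protein. Without untreated arrays 4 and 5 the counts were again 8 and 9, with CEBPZ and JDP2 changing sides, and the median was -0.03. FOSL1, an AP-1 subunit, differed by 1.01 ± 0.40, with 0.49 without the 2 arrays and 0.54 at its other probe. CEBPB differed by 0.47 ± 0.23 and by 0.46 without them. CREB3L4, an ER-anchored factor related to ATF6, differed by -0.71 ± 0.24 and by -0.67 without them. Its probe was dim, at 27.4 to 60.8 on treated and 46.9 to 87.7 on untreated arrays. The CREB3L4 difference ran from -0.85 to -0.35 over all alternatives. MAFG, a small Maf protein, gave -0.84 ± 0.43, but -0.05 without the 2 arrays and 0.07 at its other probe. The limma adjusted p was 0.501 for these 4 genes.

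Downstream, at the ER itself, the lists were centred near 0. Of 14 genes listed for the ER stress sensors and proteins acting with them 7 were measured, 2 higher and 5 lower. Their median was -0.01 (-0.06 without untreated arrays 4 and 5), with 0 past the unadjusted threshold. Of the 7, only ATF6 and ATF6B are sensors, and the others were MBTPS2, RTCB, BAX, BAK1 and TMBIM6. RTCB, the ligase that joins the XBP1 exons after IRE1 cleavage, gave 0.62 ± 0.30 (0.29 without those arrays), and the sensor ATF6 gave 0.31 ± 0.22 (0.06 without them). Its relative ATF6B gave -0.33 ± 0.24 (-0.03) and TMBIM6, an ER membrane inhibitor of cell death, -0.39 ± 0.23 (-0.39). Of 28 ER chaperones and folding enzymes 16 were measured, 10 higher and 6 lower, with a median of 0.03. The count turned to 5 higher and 11 lower, with a median of -0.11, without the 2 arrays. CRELD2, an ER stress-induced folding factor, gave 0.74 ± 0.38 but 0.18 without them. MANF, a stress-induced ER protein that binds BiP, gave -0.27 ± 0.21, and -0.49 without them. The calnexin gene CANX gave 0.33 ± 0.32, with 0.071 without treated array 4 and 0.02 at its other probe, and SDF2 0.26 ± 0.19 (0.10). HSPA5, which encodes BiP, the partner of SIL1, had no probe named by a single symbol here, nor had HSP90B1, DNAJB9, ERN1 or DDIT3.

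ER-associated degradation and entry into the secretory pathway had 27 of 45 genes measured, 17 higher and 10 lower, with a median of 0.12. Past the unadjusted threshold was 1 gene (3.70%, against 9.59% of all probes). Without untreated arrays 4 and 5 it was 10 higher and 17 lower, with a median of -0.05. The coat protein SEC23A gave -0.42 ± 0.19 with and without those arrays, and -0.51 to -0.22 over all alternatives. SRP9 and SRP72, of the particle that brings nascent chains to the ER, gave 0.46 ± 0.25 (0.35 without them) and 0.41 ± 0.26 (0.14). SPCS3, of the signal peptidase, gave 0.40 ± 0.19 (0.18), with 0.08 at its other probe. In glutathione metabolism, the pathway of the CHAC1 enzyme, 9 of 17 genes were measured, 5 higher and 4 lower, with a median of 0.05 (3 higher, 6 lower and -0.04 without the 2 arrays). GPX1, glutathione peroxidase, gave -0.93 ± 0.38 and -0.59 without them, and it was the 1 gene past the unadjusted threshold (11.1% of those measured). GCLC, the catalytic subunit of the first step of glutathione synthesis, gave -0.32 ± 0.21 (-0.08 without them). GGCT, which acts on products of glutathione breakdown, gave 0.21 ± 0.17 (0.20), and the thioredoxin reductase TXNRD1 0.46 ± 0.27 (0.34). The limma adjusted p of the genes named for the ER and glutathione lists ran from 0.501 to 0.655.

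**Figure D4:**
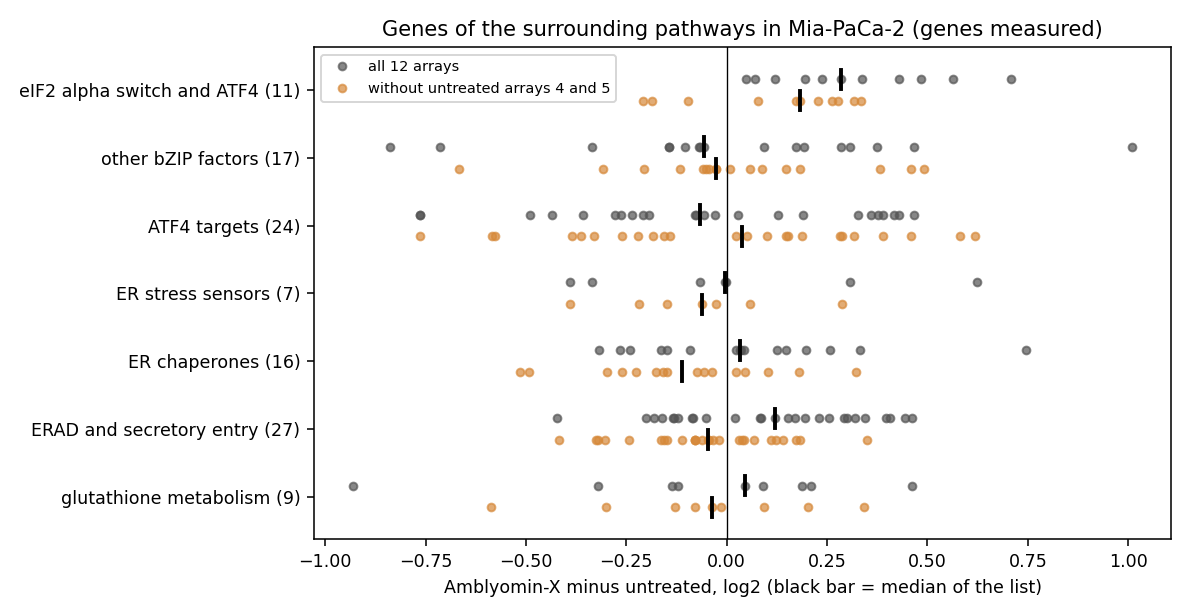
Difference between Amblyomin-X and untreated Mia-PaCa-2 arrays (log2, horizontal axis) for each measured gene of the 7 pathway lists, with the number measured in brackets and a black bar at the median. Grey points use all 12 arrays and orange points leave out untreated arrays 4 and 5. The median of the eIF2 alpha switch is 0.29 and 0.18, while those of the other 6 lists lie between -0.11 and 0.12.

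In SK-MEL-28 the pathway could be read only through neighbours of the 5 genes. ATF4 read 24.4, 86.3, 180.4, 84.6 and 261.0 on treated arrays 1 to 5 and 36.6, 90.5, 62.7, 48.3 and 64.2 on untreated arrays 1 to 5. Treated arrays 3 and 5, which stand apart over all probes, held the highest values. The difference was 0.74 ± 0.54 (limma, adjusted p = 0.846), and -0.039 without those arrays, or 0.38 to 1.24 with 1 array left out. The SE and p-values given for this line are from the fit without the replicate block, so they leave the pairing of same-numbered arrays aside. Of all probes tested in this line 42.6% were higher. Of the ATF4 targets 10 were measured, 8 higher and 2 lower, with a median of 0.37 beside -0.05 over all probes. That median was 0.13 without treated arrays 3 and 5. SHMT2, the mitochondrial serine hydroxymethyltransferase, differed by 0.70 ± 0.30 and SQSTM1, an autophagy receptor, by 2.11 ± 1.14 (limma, adjusted p = 0.838 each), or by 0.41 and 1.23 without those arrays. SQSTM1 was at 1.21 without untreated array 5. Of the eIF2 alpha switch 5 genes were measured, 3 higher and 2 lower, with a median of 0.38, against 1 higher and 4 lower, with a median of -0.062, without treated arrays 3 and 5. After adjustment 0 genes of any list passed.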

How the data were processed

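Per the file headers, the authors deposited 1 linear intensity per probe and array, and a table of normalized intensities, which was used here. How they were normalized, background-corrected and flagged is not stated in the labels or headers. In each line all arrays of the table shared 1 maximum and kept the ranks of the per-array intensities, the pattern of quantile normalization. Groups and replicate numbers came from the sample titles. Probes were named through the platform annotation: of 14257, 8051 had 1 symbol, 400 several and 5806 were unnamed here.

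The log2 of the normalized intensities was fitted for each line alone with limma 3.58.1 (R 4.3.3, lmFit and eBayes) on probes with values on at least 3 arrays per group, with Benjamini-Hochberg adjustment over all probes and a threshold of 0.05. The fit and the permutation test were tested on simulated data. Python 3.11.15 with pandas 2.3.3, NumPy 2.4.6, SciPy 1.17.1 and matplotlib 3.10.9 did the rest. The number of arrays limits the precision.

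The members, lists and tests were chosen with earlier results of these data known. Genes named were the 5 members, up to 4 genes per list with the smallest unadjusted p in Mia-PaCa-2 (2 per list in SK-MEL-28), 10 fixed stress genes where measured, and the 3 profiles most like each member. A gene was read by its probe with the highest mean. In SK-MEL-28 the same-numbered treated and untreated arrays deviated together in all 5 pairs (r from 0.25 to 0.60, each over 0.1). The pairing there comes from the data, and the blocked count stands beside the main one.

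Alternatives were leaving out single arrays or those that stand apart, a replicate block, scaling to the array median, a fresh quantile normalization, an offset of 50, array weights and leaving out the lowest 25% of probes. Gene positions other than the RefSeq promoter windows, and proteins, were not used here.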

Additional observations from a re-analysis of the deposited data

Results flagged for a closer look

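In all, 2 values stood apart from the other arrays of their group by Dixon's test, out of 92 groups of arrays tested, where chance alone flags about 1 in 20. ATF3 on treated Mia-PaCa-2 array 2 had a log2 level of 4.84, below the 5.51 to 5.83 of the other 5 treated arrays. WARS1 on treated array 3 had a log2 level of 6.06, above the 4.07 to 4.82 of the other 5.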

How the results depend on the processing

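Of 92 alternatives for the differences of the 5 genes in Mia-PaCa-2, 90 moved a value by less than the spread between arrays and none changed its direction. Among the 90 are settings that cannot move a difference: the replicate block and, for CEBPG and XBP1, leaving out the lowest 25% of probes. The other 2 added an offset of 50 before log2, which gave 0.47 for CHAC1 and -0.42 for SIL1, as an offset shrinks the differences of dim probes. Leaving out the lowest 25% of probes removed CHAC1, ATF3 and SIL1, so it gave no value for them. Over all alternatives ATF3 ran from 0.22 to 0.69, CEBPG from 0.37 to 0.67 and XBP1 from 0.46 to 0.75. Leaving out 1 array moved 12 of 28 other named genes in Mia-PaCa-2 and 10 of 13 in SK-MEL-28 by over 1.5 times, and gave 0.83 to 1.03 for CHAC1 and -1.16 to -0.90 for SIL1. No probe passed after adjustment in either line under any alternative. The Mia-PaCa-2 count at an unadjusted p under 0.05 was 636 without untreated arrays 4 and 5, and 643 to 1887 with 1 array left out (689 without untreated array 4, 643 without 5, 1887 without 1). The SK-MEL-28 count was 206 without treated arrays 3 and 5, 857 with the replicate block, 285 without the lowest 25% of probes, and 228 to 720 with 1 array left out (720, 296 and 228 without treated array 1, 3 and 5). In SK-MEL-28, leaving out treated arrays 3 and 5 reversed ATF4 (-0.039), DNAJB11 (-0.18), ERP44 (-0.19), NPLOC4 (-0.076) and SRP9 (-0.46). List medians changed sign in 44 of 224 alternatives, among them, in SK-MEL-28 without treated arrays 3 and 5, the eIF2 alpha switch (-0.062, against 0.38 with all arrays) and the ER chaperones (-0.18, against 0.51), and the switch again without treated array 3 (-0.28). They moved by more than the spread of the list median between arrays, which is wide in SK-MEL-28, in 3: 0.09 for the bZIP factors in Mia-PaCa-2 as a mean over probes, -0.05 for degradation and secretion in Mia-PaCa-2 without untreated arrays 4 and 5, and -0.08 for it in SK-MEL-28 without treated arrays 3 and 5.

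Of 190 alternatives for the correlations, 24 reversed a sign, in pairs whose r ran from -0.24 to 0.25, and no adjusted p passed. CHAC1 and CEBPG gave 0.32 without untreated arrays 4 and 5, 0.53 uncentred, 0.065 scaled to the array median and 0.050 with the offset. ATF3 and SIL1 gave -0.45 uncentred, -0.19 without the 2 arrays farthest from the median and -0.081 scaled. CHAC1 and SIL1 gave 0.20 without those 2 arrays. With 1 array left out, r ran from -0.031 to 0.36 (CHAC1 and ATF3), -0.19 to 0.18 (CHAC1 and CEBPG), -0.47 to 0.019 (CHAC1 and SIL1), -0.25 to 0.34 (ATF3 and CEBPG) and -0.13 to 0.27 (ATF3 and SIL1). The causes were not tested. Same-numbered Mia-PaCa-2 arrays deviated together in 3 of 6 pairs (r from -0.19 to 0.44, over 0.1 counted) and 2 treated arrays were most like their own number, so they were not taken as paired. With the replicate block, Mia-PaCa-2 gave 1207 probes in place of 1113. The 5 differences cannot change under the block, as each number has an array in both groups. With the block r was -0.043 for CHAC1 and ATF3 and 0.048 for CHAC1 and CEBPG. It was -0.44 for ATF3 and CEBPG and -0.034 for ATF3 and XBP1. The block changed no other call.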
